A study of Mus musculus with 12 samples.

Results

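The genes described here are members of the tumor necrosis factor (TNF) superfamily of ligands and receptors, measured in whole subcutaneous Renca tumors. Members were all genes of the deposited table whose symbol begins with Tnfsf or Tnfrsf, together with Tnf, Lta, Ltb, Ltbr, Fas, Cd27, Ngfr and Eda2r. The symbols Tnfrsf10b, Tnfrsf9, Tnfrsf4 and Tnfrsf18 were left out by that rule. It found 31 genes among the 14496 in the table: 11 ligand genes, 19 receptor genes and the antisense transcript Tnfsf13os. Of these, 28 passed the filter on low values (a log2 level of 0 or more in 6 or more of the 12 tumors) and were tested. Lta, Tnfsf13b and Tnfsf18 did not pass, and they are not among the tested members. Other members of the family, such as Cd70, Tnfsf4, Tnfsf11 and Tnfrsf8, were not analysed here.

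Renca is a mouse renal carcinoma cell line, and it was injected under the skin of BALB/C mice. All 12 subcutaneous tumors were taken on day 14: 6 had grown in mice that also carried an intra-kidney tumor (the IK group), and 6 had grown with no tumor in the kidney (the SC group, called alone below). The series asked what a second tumor, described by its submitters as immunosuppressive, does to the RNA of a tumor at a distance. No genetic change or drug is named for either group, and the labels do not say that each tumor came from its own mouse. The p-values below therefore measure the spread between these tumors. RNA came from tumor and stroma cells together, so fewer cells of a type and less RNA per cell cannot be told apart. Recovered read totals were 53312559 to 66142468 per tumor. Of 8 renal epithelial marker genes that mark the Renca cells, 7 were measured, among them Krt8, Krt18, Pax8 and Cdh16, and their summed level was 2490 to 2620 CPM (reads relative to the library total) in the IK group and 2370 to 2980 alone. Krt19 of that list was not analysed here.

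TNF family ligands are mostly trimeric proteins on the surface of immune cells, some of which are also shed. Their receptors fall into a few kinds: those with an intracellular death domain, which can start caspases, those that bind TRAF adaptors and lead to NF-κB, and decoys that bind a ligand without passing on a full signal. In tumors the family is known for killing by TNF, Fas ligand and TRAIL, for costimulation of T cells, and for the lymphotoxin signals that organise lymphoid tissue.

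No member reached an adjusted p of 0.05 between the groups. The same held for every gene tested, so 0.0% of 14008 genes and 0 of 28 members were called (limma, Benjamini-Hochberg, smallest adjusted p of a member 0.432, smallest of any gene 0.171). At an unadjusted p under 0.05 (limma), 5 of 28 members had a lower mean beside an IK tumor: Cd27, Tnfsf10, Ltb, Tnfrsf14 and Tnfrsf11a. That is 17.9% of the members, where 5.62% of all tested genes were lower by the same measure. Ltbr, Tnfrsf23 and Tnfsf9 had a higher mean at that level, 3 of 28 or 10.7%, against 5.86% of all tested genes. The groups overlapped in every tested member, so 0 of 28 stood fully apart. Of all genes tested, 0.2% lay entirely lower and 0.278% entirely higher in the IK group. Means were lower in 19 of the 28 members (67.9%) and higher in 9, where 46.7% of all tested genes were lower. The median log2 difference was -0.08 against 0.01 over all tested genes. Under quantile normalization Tnf, Tnfrsf13c, Tnfrsf19, Tnfsf15 and Tnfrsf1b, all close to 0, turned in sign. Differences below are IK minus alone, on the log2 CPM scale.

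**Figure D1:**
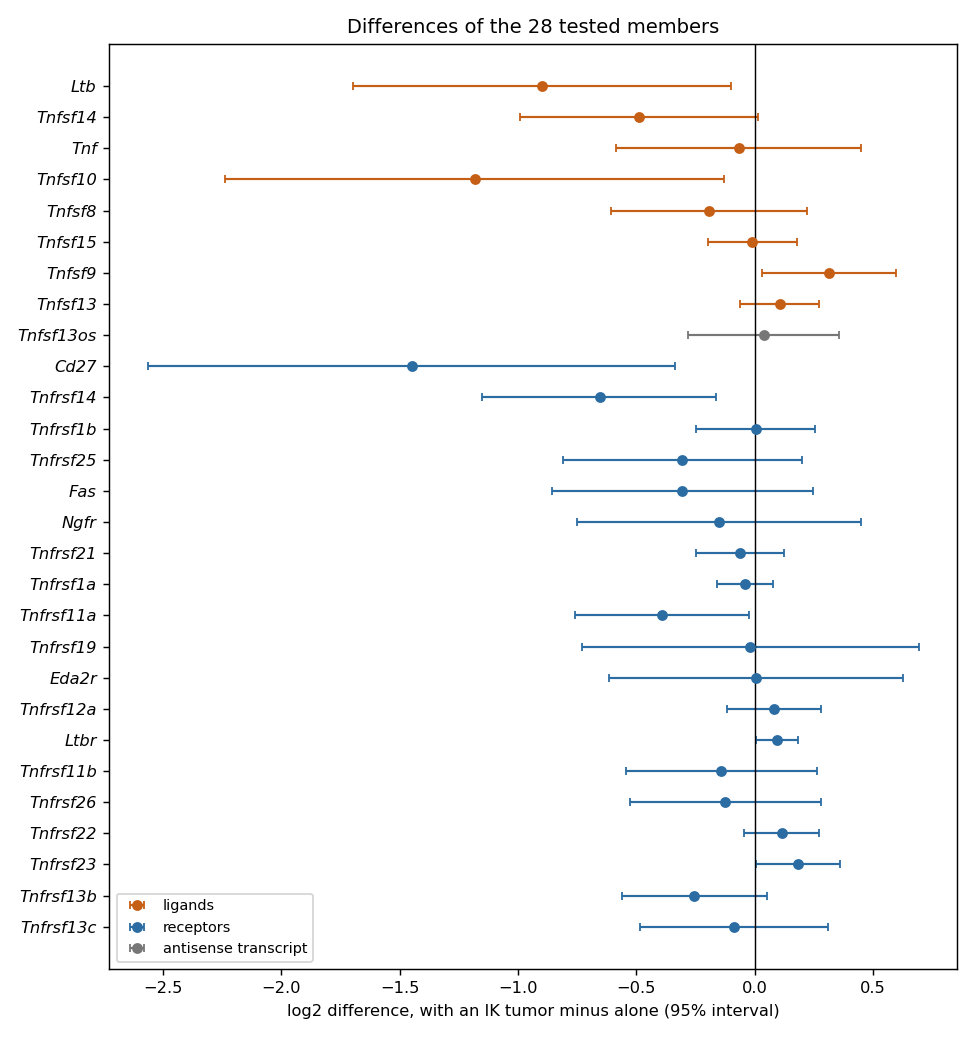
Log2 difference of each of the 28 tested members, IK group minus tumors alone, as points with 95% intervals from limma. Ligands are in orange, receptors in blue and the antisense transcript in grey, ordered by role. Cd27 at -1.45 and Tnfsf10 at -1.18 lie farthest from 0 and have among the widest intervals, while Tnfrsf1a and Ltbr have the narrowest.

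Among the lymphotoxin ligands and Tnf, Ltb had a lower mean beside an IK tumor at an unadjusted p under 0.05, and no gene of the group passed the adjusted threshold. Ltb encodes the membrane-bound lymphotoxin β chain, which pairs with lymphotoxin α and signals through Ltbr. Its level ran from 2.16 over a median of 2.77 to 4.37 log2 CPM in the IK group and from 2.66 over 3.95 to 4.66 alone. In the IK group 5 tumors lay at or below 2.92 and replicate 2 lay far above them, while alone 5 tumors lay at or above 3.58 and replicate 6 fell below. The difference was -0.90 (95% interval -1.70 to -0.10), a 1.86-fold lower geometric mean, with an unadjusted p of 0.0305 and an adjusted p of 0.432 (limma). Lta, the secreted partner chain, was near the detection limit, with 3 to 91 reads per tumor. It ranged from -4.12 over -2.48 to -0.69 in the IK group and from -2.09 over -0.78 to 0.52 alone. The means were -2.43 ± 1.17 and -0.68 ± 0.92 (SD, n = 6 each), and again replicate 2 was the highest of its group and replicate 6 the lowest of its own. Tnfsf14 encodes LIGHT, which binds both Ltbr and the receptor encoded by Tnfrsf14. Its levels were 0.00, 0.28 and 1.37 in the IK group and 0.34, 0.98 and 1.32 alone (lowest, median and highest). The interval of its difference reached from -0.99 to 0.01 around -0.49 (limma, unadjusted p = 0.0555, adjusted p = 0.439). Tnf, the founding cytokine of the family, gave 1.85, 2.06 and 2.91 with an IK tumor and 1.41, 2.26 and 2.94 alone. Its difference of -0.07 had an interval of -0.59 to 0.45 (limma, adjusted p = 0.911), which leaves differences in either direction possible. Ltb, Tnf and Lta follow each other on chromosome 17 with 0 other protein-coding genes between them in RefSeq, yet their differences were -0.90, -0.07 and -1.75.

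Tnfsf10 encodes TRAIL, a death ligand whose gene is known to respond to interferons. Its level was 1.4, 2.04 and 4.52 in the IK group and 2.33, 3.50 and 4.63 alone (lowest, median and highest), which is 175 to 1575 reads over all tumors. In the IK group 5 tumors lay at or below 2.42, and alone 5 lay at or above 3.43, so that only replicate 2 of the IK group and replicate 6 alone crossed between the ranges. The difference of -1.18 (-2.24 to -0.13) is a 2.27-fold lower geometric mean (limma, unadjusted p = 0.0306, adjusted p = 0.432). It was -0.97 without replicate 5 alone (limma, unadjusted p = 0.0703) and -1.61 without replicate 2 of the IK group.

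Of the receptors on lymphocytes, Cd27 and Tnfrsf14 had the smallest p-values among the members, and Tnfrsf1b did not differ by more than the spread. Cd27 is the costimulatory receptor for CD70 and is carried mainly by T cells and NK cells. Its level ran from -0.68 over -0.03 to 2.43 in the IK group and from 0.58 over 1.72 to 2.75 alone. Replicates 3, 4, 5 and 6 of the IK group lay below every tumor grown alone, and replicate 2 lay above all but 1 of them. The difference of -1.45 (-2.56 to -0.34) was the largest of the 28 and corresponds to a 2.73-fold lower geometric mean (limma, unadjusted p = 0.0147, adjusted p = 0.432). Cd27 overlaps Vamp1 on the opposite strand, and since the strand handling is not known, reads of the pair cannot be told apart. Vamp1 itself was at 3.36 ± 0.06 with an IK tumor and 3.56 ± 0.12 alone (SD, n = 6 each). Its difference was -0.20 (limma, unadjusted p = 0.00576, adjusted p = 0.432). Tnfrsf14 encodes HVEM, which receives LIGHT and also binds the inhibitory receptor BTLA. It was at 1.95, 2.31 and 3.28 in the IK group and at 2.52, 3.0 and 3.71 alone. Apart from replicate 2, the 5 other IK tumors lay at or below 2.44, under all tumors grown alone. The difference was -0.66 (-1.15 to -0.16), a 1.58-fold lower geometric mean (limma, unadjusted p = 0.0133, adjusted p = 0.432). Tnfrsf1b, the second TNF receptor, which is carried by regulatory T cells and myeloid cells among others, was at 6.90 ± 0.19 with an IK tumor and 6.89 ± 0.25 alone (SD, n = 6 each). Its interval was -0.25 to 0.26.

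**Figure D2:**
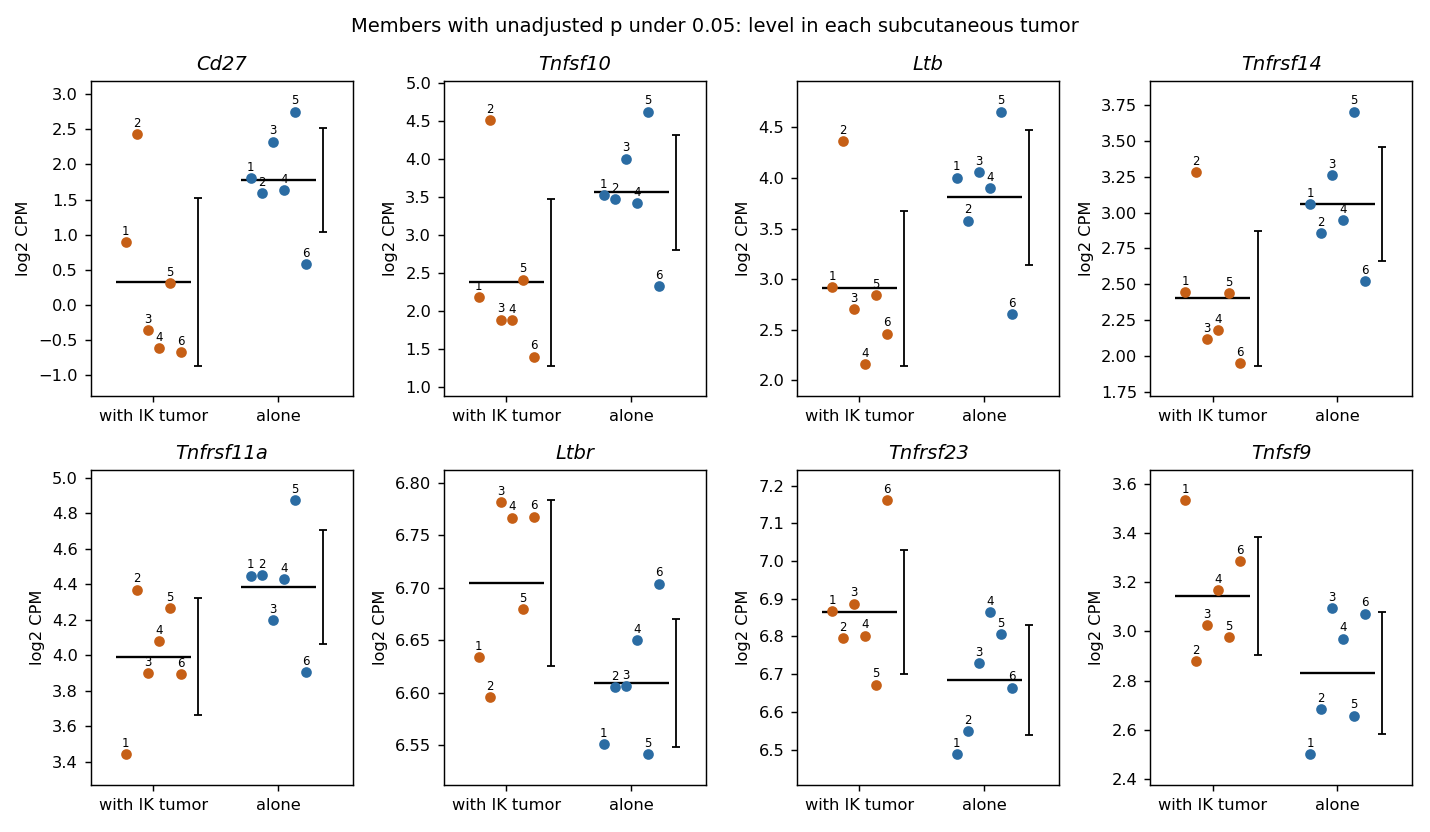
Level in log2 CPM of the 8 members with an unadjusted p under 0.05, 1 point per tumor with its replicate number, with an IK tumor in orange and alone in blue. Lines are means and bars SDs of 6 tumors. Replicate 2 of the IK group lies among the tumors grown alone for Cd27, Tnfsf10, Ltb and Tnfrsf14, and replicate 6 alone lies near the other IK tumors.

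The promoters shown are those of the 4 tested members with the lowest differences and of Lta. For all 5 genes replicate 2 was the highest of the IK group and replicate 6 the lowest alone. That order is not particular to them. Of all 31 members, replicate 2 was the highest IK tumor for 21 and replicate 6 the lowest alone for 20. Each window runs from 250 bases before to 50 bases after the RefSeq transcription start (GRCm38.p6, another build than that of the deposited table), 5′ to 3′ on the gene's strand. Capitals mark matches to 3 motifs searched on both strands. These were a STAT motif (TTCNNNGAA), an IRF motif (GAAANNGAA) and the κB consensus, and no matches overlapped in these windows. Ltb lies at chr17:35194257-35194556 on the + strand, Lta at chr17:35205302-35205601 on the - strand, Tnfsf10 at chr3:27316827-27317126 on the + strand, Cd27 at chr6:125236978-125237277 on the - strand and Tnfrsf14 at chr4:154928028-154928327 on the - strand.
Ltb: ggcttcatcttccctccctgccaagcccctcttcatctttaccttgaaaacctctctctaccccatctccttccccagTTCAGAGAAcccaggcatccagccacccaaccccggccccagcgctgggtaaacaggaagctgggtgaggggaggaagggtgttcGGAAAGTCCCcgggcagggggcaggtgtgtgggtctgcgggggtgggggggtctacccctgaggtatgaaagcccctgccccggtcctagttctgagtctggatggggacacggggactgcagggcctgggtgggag
Lta: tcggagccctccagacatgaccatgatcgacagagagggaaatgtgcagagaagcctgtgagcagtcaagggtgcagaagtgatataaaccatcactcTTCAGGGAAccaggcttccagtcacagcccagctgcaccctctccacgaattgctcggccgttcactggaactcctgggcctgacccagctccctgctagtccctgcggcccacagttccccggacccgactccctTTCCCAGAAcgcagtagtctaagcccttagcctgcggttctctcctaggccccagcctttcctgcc
Tnfsf10: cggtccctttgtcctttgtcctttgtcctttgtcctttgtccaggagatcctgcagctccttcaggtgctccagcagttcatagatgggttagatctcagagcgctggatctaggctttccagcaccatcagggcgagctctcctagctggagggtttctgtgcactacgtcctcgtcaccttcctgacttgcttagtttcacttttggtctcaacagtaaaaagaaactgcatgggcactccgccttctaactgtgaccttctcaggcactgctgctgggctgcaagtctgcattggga
Cd27: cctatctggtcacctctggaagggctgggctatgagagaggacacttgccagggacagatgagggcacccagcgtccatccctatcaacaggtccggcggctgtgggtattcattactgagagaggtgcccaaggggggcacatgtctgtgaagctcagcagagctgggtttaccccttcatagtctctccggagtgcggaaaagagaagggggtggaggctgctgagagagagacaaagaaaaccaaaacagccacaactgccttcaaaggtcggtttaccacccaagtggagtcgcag
Tnfrsf14: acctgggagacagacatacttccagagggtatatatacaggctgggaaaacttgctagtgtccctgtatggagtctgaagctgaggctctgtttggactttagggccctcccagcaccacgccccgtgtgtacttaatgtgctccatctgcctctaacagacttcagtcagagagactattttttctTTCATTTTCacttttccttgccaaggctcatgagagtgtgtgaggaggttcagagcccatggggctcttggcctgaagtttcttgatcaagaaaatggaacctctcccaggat

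The Ltb window held a STAT match that begins 172 bases before the start and a κB match that begins 87 bases before it. Lta had STAT matches 152 and 16 bases before the start, and Tnfrsf14 an IRF match 63 bases before it. The windows of Cd27 and Tnfsf10 held none of the 3 motifs, which says only that these letters are not in these windows. The 26 member genes with a RefSeq window had 29 windows. Of these, 7 held the STAT motif, those of Fas, Tnfrsf1a and Tnfrsf1b included. Of all 32817 windows, 8.29% held it. The IRF motif was in 4 of the 29 member windows (8.55% of all windows). The κB consensus was in 2 of them, of Ltb and Tnfrsf25 (8.46% of all windows). These matches are descriptions of sequence and not of binding.

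Among the ligands that costimulate lymphocytes, Tnfsf9 stood higher beside an IK tumor. It encodes the ligand of the costimulatory receptor 4-1BB and was at 2.88, 3.10 and 3.53 with an IK tumor and at 2.50, 2.83 and 3.09 alone (lowest, median and highest). All 6 IK tumors lay above the median of the tumors grown alone, and the highest 3 lay above every one of them. The difference was 0.31 (0.03 to 0.60, limma, unadjusted p = 0.0323, adjusted p = 0.432). Here replicate 2 was the lowest of the IK group. Tnfsf9 overlaps Gm11110 on the opposite strand, which was at 1.66 ± 0.27 and 1.47 ± 0.16 (SD, n = 6 each). Tnfsf8, the CD30 ligand, differed by -0.19 (-0.61 to 0.22). Tnfsf15, which encodes TL1A and is made by endothelial and myeloid cells, differed by -0.01 (-0.20 to 0.18), with all 12 tumors between 3.19 and 3.68. Tnfsf18, the GITR ligand, was below the filter with 24 to 79 reads per tumor, at -0.41 ± 0.46 with an IK tumor and -0.22 ± 0.52 alone (SD, n = 6 each).

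All 5 receptors with a death domain had lower means in the IK group, as did 46.7% of all tested genes. None of the 5 was past an unadjusted p of 0.05 (limma). Tnfrsf25 encodes DR3, the receptor of TL1A on T cells. Its levels were 0.73, 0.94 and 1.39 with an IK tumor and 0.37, 1.48 and 1.81 alone, and the difference was -0.31 (-0.81 to 0.20, limma, unadjusted p = 0.212). Without replicate 2 alone, the lowest tumor, it was -0.49 (limma, unadjusted p = 0.0192, adjusted p = 0.517). Replicate 6 alone, the lowest of its group for most members, was the highest here. Fas, the receptor of Fas ligand and a target of p53 and interferon-γ, was at 1.41, 1.68 and 2.62 with an IK tumor and 1.11, 2.12 and 2.58 alone, a difference of -0.31 (-0.86 to 0.25). Without replicate 6 alone the Fas difference was -0.50 (limma, unadjusted p = 0.0313, adjusted p = 0.212). Ngfr, the low-affinity neurotrophin receptor, differed by -0.15 (-0.75 to 0.45) and varied widely, from 0.58 to 2.31. Tnfrsf1a encodes the main TNF receptor of most cell types. With 6827 to 9028 reads in every tumor it stood at 7.03 ± 0.10 with an IK tumor and 7.07 ± 0.10 alone (SD, n = 6 each), and its interval of -0.16 to 0.07 is among the narrowest of the family. Tnfrsf21, or DR6, differed by -0.06 (-0.25 to 0.13).

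Of the receptors of stroma, epithelium and other tissue cells, Tnfrsf11a had a lower and Ltbr a higher mean beside an IK tumor. Tnfrsf11a encodes RANK, known from osteoclast precursors, dendritic cells and epithelium. It was at 3.44, 3.99 and 4.37 with an IK tumor and 3.90, 4.44 and 4.87 alone. All 6 IK tumors lay below the median of the tumors grown alone, though only replicates 1, 3 and 6 lay below all of them. Its difference was -0.39 (-0.76 to -0.02, limma, unadjusted p = 0.0386, adjusted p = 0.432), and it was -0.28 without replicate 1 of the IK group. Ltbr, the receptor of the lymphotoxin heterotrimer and of LIGHT, had a difference opposite in sign to those of its ligands. Its levels were 6.60, 6.72 and 6.78 with an IK tumor and 6.54, 6.61 and 6.70 alone. The difference was small, 0.09 (0.01 to 0.18, limma, unadjusted p = 0.0388, adjusted p = 0.432), in a gene whose SDs were 0.08 and 0.06 (n = 6 each). Replicate 2 of the IK group was the lowest of its group for Ltbr and replicate 6 alone the highest of its own. Cd27, Ltbr and Tnfrsf1a lie close together on chromosome 6, with 1 other protein-coding gene between each pair of neighbours, and differed by -1.45, 0.09 and -0.04. Tnfrsf12a encodes Fn14, the injury-induced receptor of TWEAK, and differed by 0.08 (-0.12 to 0.28). Tnfrsf19 (TROY) and Eda2r (the receptor of ectodysplasin A2) differed by -0.02 (-0.73 to 0.69) and 0.01 (-0.61 to 0.62), intervals too wide to set a direction.

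The decoy and soluble receptors gave small differences. Tnfrsf23 and Tnfrsf22 encode the mouse decoy receptors of TRAIL. Tnfrsf23 was at 6.67, 6.83 and 7.16 with an IK tumor and 6.49, 6.70 and 6.86 alone. The difference was 0.18 (0.00 to 0.36, limma, unadjusted p = 0.0464, adjusted p = 0.432), and it was 0.12 without replicate 6 of the IK group, the highest tumor. Tnfrsf22 differed by 0.11 (-0.05 to 0.27) and its neighbour Tnfrsf26 by -0.12 (-0.53 to 0.28). Tnfrsf26, Tnfrsf22 and Tnfrsf23 follow each other on chromosome 7 and are similar in sequence, and it is not known how reads that match more than 1 of them were counted, so their separate values are uncertain. Tnfrsf11b encodes osteoprotegerin, a soluble decoy of RANK ligand and TRAIL, and differed by -0.14 (-0.54 to 0.26).

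The genes of B cell survival gave no difference beyond the spread. Tnfsf13, which encodes APRIL, was at 2.83 ± 0.15 with an IK tumor and 2.73 ± 0.10 alone (SD, n = 6 each). Its antisense transcript Tnfsf13os lay at 0.72 ± 0.27 and 0.68 ± 0.22, and without known strand handling reads of the overlapping pair cannot be told apart. Tnfsf13b, which encodes BAFF, was below the filter with 18 to 104 reads, at -0.52 ± 0.60 and -0.06 ± 0.55 (SD, n = 6 each). The receptor gene Tnfrsf13b (TACI) was at 3.47, 3.62 and 4.12 with an IK tumor and 3.43, 3.95 and 4.26 alone, a difference of -0.25 (-0.56 to 0.05, limma, unadjusted p = 0.0942). Tnfrsf13c, the BAFF receptor, was ordered otherwise. It was highest in replicate 2 alone at 3.63 and lowest in replicate 6 of the IK group at 2.44, and differed by -0.09 (-0.49 to 0.31). B cell markers were summed in CPM, a scale that cannot be read directly against the log2 levels of these receptors. The 6 measured genes of a list of 8 summed to 13.3 to 20.2 CPM in the IK group and 13.8 to 24.3 alone, and of the 4 tested 2 had a lower mean (differences of -0.95 for Fcrla and -0.31 for Cd22) and 2 a higher one (0.02 for Cd79a and 0.01 for Pax5).

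Per exon length, the highest levels of the family belonged to receptors, and no ligand had a mean above 10.0. In tumors grown alone, Tnfrsf12a was highest at 74.4 ± 9.29 RPKM (recovered reads scaled by exon length and library total, SD, n = 6), followed by Tnfrsf1a at 52.0 ± 3.45, Ltbr at 41.5 ± 1.78, Tnfrsf1b at 31.5 ± 5.47 and Tnfrsf23 at 26.0 ± 2.62. The highest ligand was Ltb at 10.0 ± 4.09, ahead of Tnfsf9 at 5.57 ± 0.94. Tnf stood at 2.98 ± 1.03, Tnfsf10 at 2.51 ± 1.27 and Cd27 at 1.63 ± 0.78 on that scale. Ltb and Tnfrsf21, which followed at 7.96 ± 0.81, did not differ by more than their spread. Exon lengths came from a newer annotation than the one used for counting, so the order of genes with close values is approximate.

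**Figure D3:**
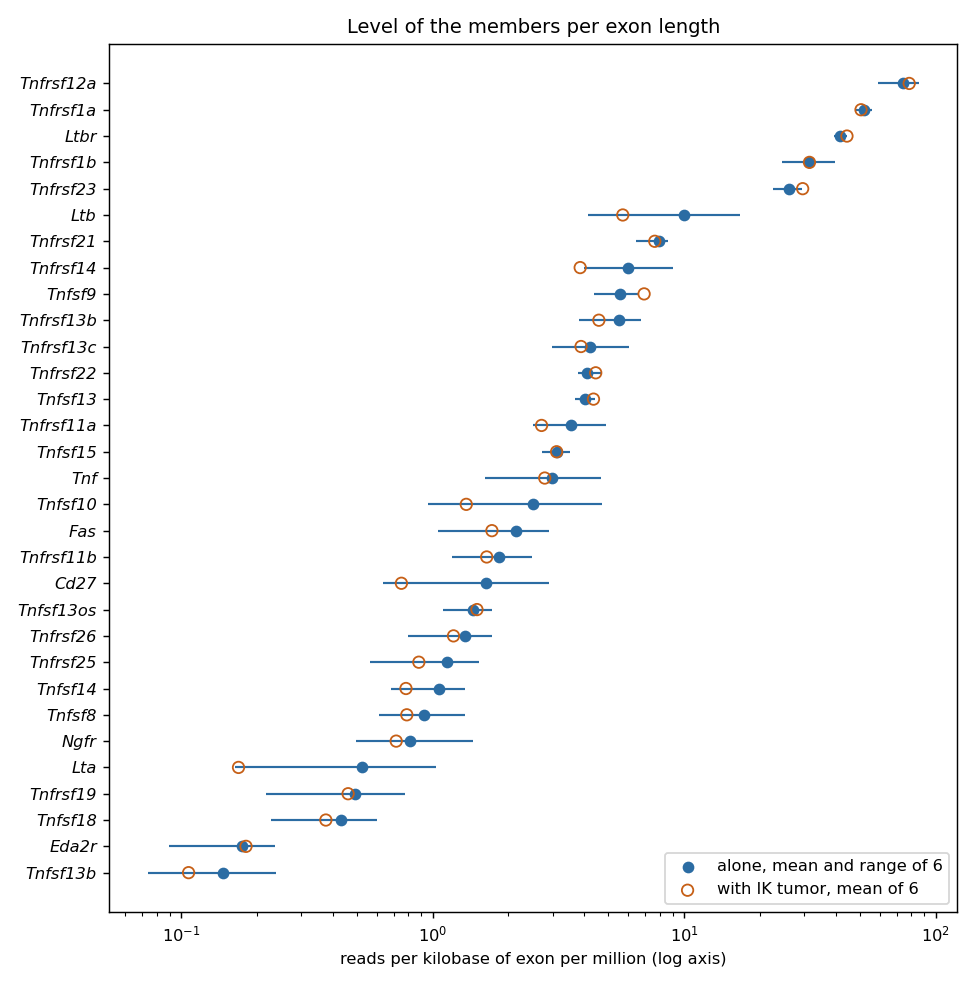
Level of all 31 members per exon length on a log axis, as the mean and range of 6 tumors grown alone (blue) and the mean of 6 tumors with an IK tumor (orange circles). Receptors from Tnfrsf23 at 26.0 to Tnfrsf12a at 74.4 form the upper end, and no ligand has a mean above 10.0, though the range of Ltb in tumors grown alone reaches 16.6.

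The members varied more between tumors than most genes. Their median SD over the 12 tumors was 0.34 on the log2 scale against 0.12 over all tested genes, and 26 of 28 lay above that median. The comparison was not matched for level, and counting error is larger for genes of few reads, such as Eda2r with 28 to 106. The same tumors were high or low for many of them. In the IK group, replicate 2 was the highest for 19 of the 28 tested members (67.9%), while it was the highest for 28.6% of all tested genes. Among the tumors grown alone, replicate 6 was the lowest for 17 members (60.7%, against 26.0% of all genes) and replicate 5 the highest for 14 (50%, against 25.1%). Exceptions were Ltbr and Tnfsf9, for which replicate 2 was the lowest IK tumor. These shares are descriptions, since members that vary together are not separate observations.

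**Figure D4:**
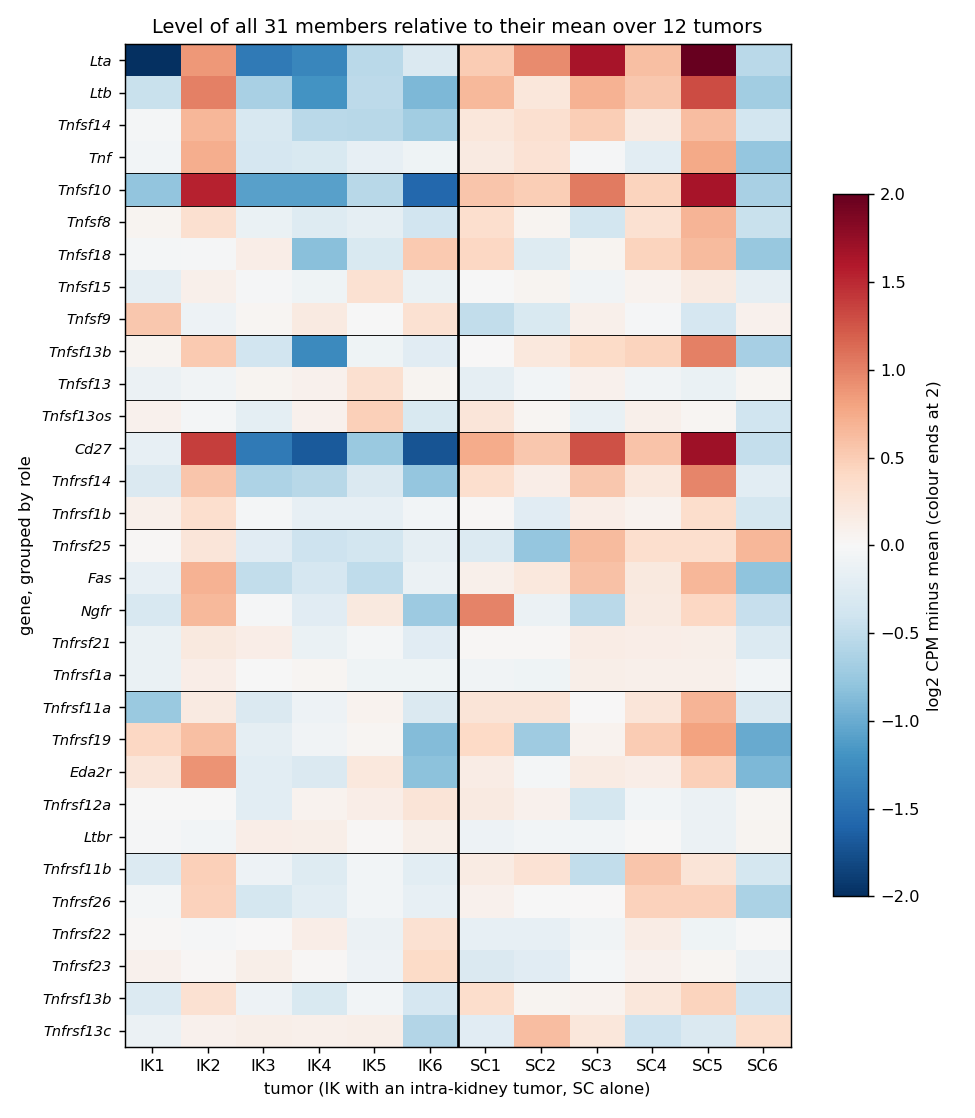
Level of all 31 members in each tumor relative to the gene's mean over 12 tumors (log2 CPM, red above and blue below, colours ending at 2), with genes grouped by role. Columns IK2 and SC5 are red and SC6 is blue for most ligands and lymphocyte receptors, while Tnfrsf1a, Tnfrsf12a and Ltbr vary little.

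Markers of other immune cells were high or low in the same tumors, except those of plasma cells among the tumors grown alone. A list of 14 T cell markers, all measured, summed to 64.8 to 101 CPM in 5 IK tumors and 231 in replicate 2. Alone, the sum was 78.9 in replicate 6 and 135 to 273 in the other 5. All 14 had lower means in the IK group and 12 had an unadjusted p under 0.05 (limma), with Cd5 at -1.59, Cd6 at -1.46 and Cd4 at -0.85 (adjusted p = 0.432 each). Dendritic cell markers, 10 of 10 measured, summed to 147 to 252 CPM with an IK tumor and 142 to 302 alone, with Xcr1 at -0.79, Siglech at -1.21 and Batf3 at -0.53. Macrophage markers (12 of 12) summed to 4120 to 5620 and 3920 to 5330, with C1qc at -0.19, and none of the 12 was past an unadjusted p of 0.05. Neutrophil markers (4 of 7) summed to 22.9 to 46.0 and 25.3 to 53.5, with Csf3r at -0.45. Plasma cell markers (4 of 6) summed to 173 to 207 and 179 to 210, with Jchain at -2.86. Alone, their sum was lowest in replicate 2 and highest in replicate 1.

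Lists for tissue around the tumor cells followed the same tumors in part. Fibroblast markers (8 of 8) summed to 4670 to 12300 CPM with an IK tumor and 4820 to 15700 alone, with Lum at -0.46, and endothelial markers (8 of 8) to 197 to 272 and 188 to 330, with Kdr at -0.27. Fat cell markers (7 of 9) summed to 183 to 216 and 199 to 251, with Cidec at -1.82. Muscle markers (10 of 10) summed to 48.3 to 231 with an IK tumor and to 127 to 485 in 5 tumors alone, but to 3.99 in replicate 6. Of the skin list only Krt17 was measured, 1 of 9, at 0.21 (limma, unadjusted p = 0.216). In 9 of these 12 lists, the renal epithelial one included in the count, replicate 2 was the highest of the IK group, and in 8 replicate 6 was the lowest alone. No marker gene of any list was at 0 reads in any tumor. The part of any of these cell types in the differences of the members was not tested.

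Among genes that act downstream of these receptors no difference passed the adjusted threshold. Of 59 tested genes of signalling, NF-κB and lymphoid response lists, which include Ltb and Ltbr, 0 were called. At an unadjusted p under 0.05 (limma) 6 were lower (10.2%, against 5.62% of all tested genes) and 5 higher (8.47%, against 5.86%), and the median difference was -0.04. Among 27 adaptors and death regulators 2 were lower and 1 higher: Rnf31, the catalytic subunit of the linear ubiquitin ligase, at -0.31, Traf1, an NF-κB-induced adaptor, at -0.46, and Tank at 0.06. Of 13 NF-κB subunits and their kinases, 11 had lower means, where 46.7% of all tested genes did. Ikbkb, a kinase subunit of the IκB kinase complex, was past an unadjusted p of 0.05 at -0.12 (limma, unadjusted p = 0.00638, adjusted p = 0.432). Of 16 NF-κB target genes, 11 had lower means and 5 higher, and at that level 1 was lower and 3 were higher. The lower one, named after its values were seen, was the interferon-induced chemokine Cxcl10 at -1.27 (limma, unadjusted p = 0.0374). The neutrophil chemokines Cxcl1 and Cxcl2 stood at 0.32 and 0.35 and the protease Mmp9 at 0.27. Of 3 tested genes of the lymphotoxin response list, Cxcl13, the B cell chemokine that lymphotoxin induces in stroma, was at -1.53, beside Ltb and Ltbr, which belong to the family itself. None of these genes passed over all genes tested (limma, adjusted p = 0.432 for each named here).

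How far the differences rest on single tumors was examined by leaving out each in turn. Cd27 and Tnfrsf14 kept an unadjusted p under 0.05 in 12 of 12 such fits (limma), Tnfsf10 and Tnfsf9 in 6, Ltb, Tnfrsf11a and Ltbr in 5 and Tnfrsf23 in 4. These members were picked by their p with all 12 tumors, and the fits share most tumors. The counts are therefore descriptions, and no such count over all genes is given here. Without replicate 2 of the IK group, 1.22% of all genes were called and 3 of 28 members: Cd27 at -1.87, Tnfsf10 at -1.61 and Tnfrsf14 at -0.83 (limma, adjusted p = 0.0407, 0.0407 and 0.048). Tnfrsf14 then no longer overlapped between the groups. Of the downstream genes, Cxcl10 at -1.76, Irf1, an interferon-response factor, at -0.83 and Rnf31 at -0.40 were called without that tumor (limma, adjusted p = 0.0397, 0.0471 and 0.048). Replicate 2 lies opposite to its group for these genes, so its removal enlarges the difference by construction, and that choice is not part of the p-values. Without replicate 6 alone, 0 members were called (smallest adjusted p 0.196, limma), with Cd27 at -1.69. A fit that weights tumors by how well they follow their group gave replicate 2 of the IK group a weight of 0.322 and replicates 5 and 6 alone weights of 0.481 and 0.48, against 0.706 to 1.87 for the others. With those weights 3.89% of all genes were called and 5 of 28 members, Cd27, Tnfsf10, Ltb, Tnfrsf14 and Tnfsf14, all lower (limma, adjusted p from 0.0369 to 0.0485). The weights were estimated from these same values, and that step is not part of the p-values. These calls are therefore not separate support for a difference.

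**Figure D5:**
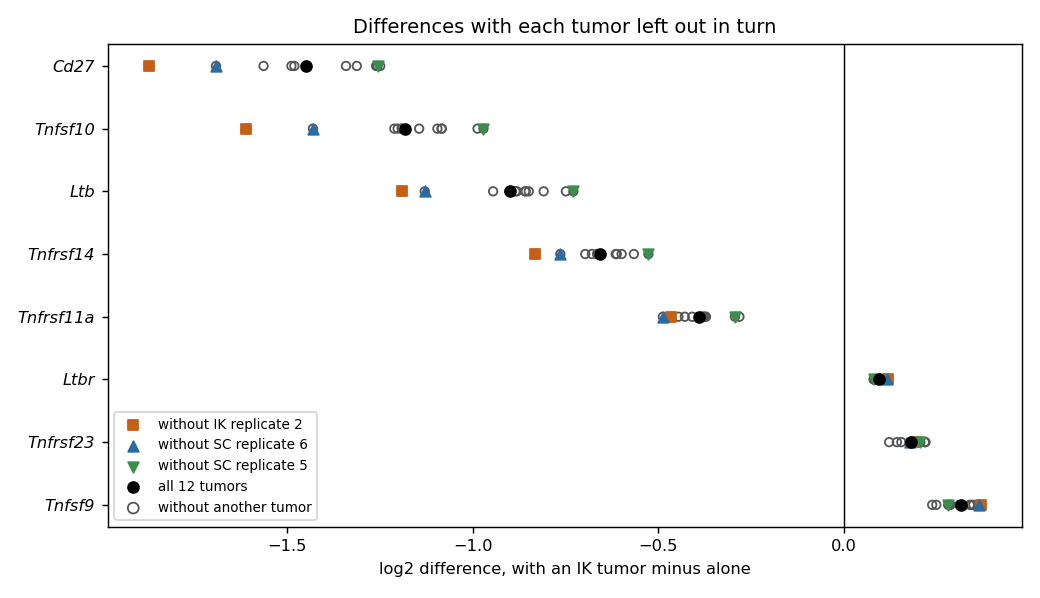
Log2 difference of the 8 members with an unadjusted p under 0.05, IK group minus alone, with all 12 tumors (black) and with each left out in turn (circles and coloured marks). Cd27 ranges from -1.87 (IK replicate 2 left out) to -1.25, and no point of these 8 genes crosses 0.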

How the data were processed

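RNA was extracted with Qiagen RNeasy and sequencing libraries came from an Illumina TruSeq RNA kit, per the labels. Tools named in the submitters' processing notes are TopHat 1.4.1, CASAVA 1.8.2, limma and HTSeq, with build mm9; settings, strand handling and annotation release are not given in the sources used here. The authors deposited log2 values, of the form log2 CPM with 0.5 reads added. In every column 100% of values gave a whole number of reads within 0.001, and the library sizes behind the values were 0.985 to 1.01 times the recovered totals. Depth makes counting error small except for genes of few reads. Symbols were matched by identifier for 14004 of 14496 genes.

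The deposited values were fitted without further scaling in R 4.3.3 with a limma 3.58.1 linear model (two-sided, empirical Bayes with a trend, Benjamini-Hochberg over 14008 genes, threshold 0.05). Intervals are 95% intervals of that fit. The fit was tested on simulated data with known changes. Levels per length use recovered reads and GENCODE exon lengths. Promoter windows are from RefSeq (GRCm38.p6). The members and gene lists were chosen with earlier results of these data known. Values in all tumors were given for members with an unadjusted p under 0.05 and at least the 2 of smallest p per role where measured, and up to 3 genes of smallest p per list were named. Alternatives were other filters, scalings, variance models and weights, voom on recovered reads, a replicate block, and each tumor left out. Shared replicate numbers are not said to pair tumors.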

Additional observations from a re-analysis of the deposited data

Results flagged for a closer look

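Dixon's criterion has a nominal rate of about 1 in 20, and no share over all genes is given here. By that criterion a tumor stood apart from the other 5 of its group in 9 of 62 sets of values (14.5%). Replicate 2 of the IK group was high in 6 of them: Ltb at 4.37 log2 CPM (others 2.16 to 2.92), Tnfsf10 at 4.52 (1.4 to 2.42), Tnfrsf14 at 3.28 (1.95 to 2.44), Tnf at 2.91 (1.85 to 2.13), Fas at 2.62 (1.41 to 1.8) and Tnfrsf11b at 2.73 (1.98 to 2.19). Replicate 6 of the IK group was low for Tnfrsf13c, at 2.44 (2.90 to 3.14). Among the tumors grown alone, replicate 6 was low for Tnfrsf21, at 4.72 (5.02 to 5.14), and for Eda2r, at -0.90 (-0.03 to 0.48). These sets share tumors and are not separate observations. Over all tested genes, replicate 2 was the highest IK tumor for 28.6% and the lowest for 33.9%. The count therefore cannot be read as a trait of the family.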

How the results depend on the processing

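Without a trend of the variance (limma), 1 gene and 0 members were called, and 1 member in place of 3 was higher at an unadjusted p under 0.05. Over all 14008 genes, 766 in place of 821 were higher at that level. With sample weights (limma) the calls were 545 of all genes, 5 members and 7 genes of the downstream lists. At that unadjusted level 9 of 28 members were lower and 2 higher, against 1927 and 1845 of 14008 genes. In the main fit 787 genes were lower and 821 higher. The cause was not tested. Leaving out each tumor in turn gave 0 to 171 genes called, 0 to 3 members and 0 to 3 downstream genes, and 0 to 1 member without overlap. At that unadjusted level 2 to 8 members were lower and 0 to 4 higher. Over all 14008 genes the same fits gave 409 to 1674 lower and 426 to 1742 higher. Without replicate 6 alone, where 8 members were lower, 1578 genes were lower. With no filter Lta was tested, at -1.75 (limma, unadjusted p = 0.00853, adjusted p = 0.431). With the replicate block (limma) 0 members were called, and the block changed no call. At an unadjusted p under 0.05 in that fit 6 members were lower and 2 higher, against 777 and 772 of 14008 genes. Same-numbered tumors correlated from -0.31 to 0.45 in their deviations from the group means. IK replicates 1, 3, 4 and 6 all matched replicate 6 alone best, so these correlations cannot decide whether the numbers pair tumors. Sign changes were seen in 8 members. Quantile normalization gave Tnf 0.045, Tnfrsf1b -0.002, Tnfsf15 0.046, Tnfrsf19 0.10 and Tnfrsf13c 0.005, median centring gave Tnfsf15 0.002, sample weights gave Tnfrsf1b -0.057 and Eda2r -0.14, and voom gave Eda2r -0.011. With single tumors left out, Eda2r ranged from -0.18 to 0.17, Ngfr from -0.30 to 0.032, Tnf from -0.23 to 0.075, Tnfrsf13c from -0.18 to 0.025, Tnfrsf19 from -0.22 to 0.15, Tnfrsf1b from -0.065 to 0.074, Tnfsf13os from -0.055 to 0.10 and Tnfsf15 from -0.072 to 0.025. The other 20 of 28 kept their sign in the 12 such fits and in the 8 other settings, except that Tnfsf14 was not tested under the stricter filter. Reads limit Lta, Tnfsf13b, Tnfsf18 and Eda2r most.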
